A study of Mus musculus with 41 samples.

Results

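Trem1, Trem2, Clec5a, Tyrobp and Syk form a receptor, adaptor and kinase series of myeloid cells, and they were followed through the lungs and livers of mice that inhaled nano-sized titanium dioxide (nanoTiO2) or filtered air. The 5 genes, measured by 9 probes among the 27962 gene names and 41174 probes of the array, were chosen from earlier results of these same lung arrays. The difference between exposed and control lungs was among the values that chose them, so it is described here without a test. Any spot whose annotated gene name was 1 of the 5 symbols was taken, and the probes of a gene were kept apart.

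Female C57BL/6 mice, given as C57BL/6BomTac in the study's methods, breathed 40 mg nanoTiO2/m3, as the labels of these arrays give it, for 1 h per day on 11 consecutive days, while controls breathed filtered air. All tissues were taken 5 days after the last exposure. The nanoTiO2 was a surface-coated rutile powder given by whole-body inhalation. All mice had been mated without conceiving, according to the study's methods, and the labels of these arrays give their age only as equivalent to GD4. The labels of the microRNA arrays of lung give 11-13 weeks. Lung RNA came from 7 exposed and 6 control mice, and liver RNA came from 7 exposed and 8 control mice, with 1 array per mouse and tissue. Sample RNA carried Cy5 and was hybridized beside a Cy3-labelled pool of mouse cell line RNA, so every value below is a log2 ratio of sample over that reference pool. A ratio compares arrays for a given probe and does not rank genes by level.

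The receptors of this group carry almost no signalling tail of their own. Trem1, Trem2 and Clec5a are held in the membrane with the adaptor DAP12, the product of Tyrobp, whose tail bears an immunoreceptor tyrosine-based activation motif (ITAM). When a receptor is engaged, Src family kinases phosphorylate the tyrosines of the motif and the kinase Syk docks there, and phospholipase C gamma, Vav and Card9-Bcl10-Malt1 signalling follows. Trem2 binds lipids and apolipoproteins and is known from lipid-laden and debris-clearing macrophages, Trem1 amplifies inflammatory responses of neutrophils and monocytes, and Clec5a is a C-type lectin receptor of monocytes, macrophages and neutrophils.

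The probes that bridge an intron are shown because they report spliced RNA and, for Clec5a, a single transcript variant. Their positions, on the mm7 build named in the array files, cover more genomic bases than the 60 of the probe. They are Trem2 A_51_P269549 (chr17:46496563-46496699), Clec5a A_51_P398376 (chr6:40512292-40515206) and Tyrobp A_51_P261517 (chr7:27358831-27360558). The Clec5a probe is listed with 1 transcript, NM_021364, whereas A_52_P142888 and A_52_P218058 are each listed with 2. Capitals in the Tyrobp probe mark the codons from a tyrosine to a leucine 3 residues on, the first arm of the DAP12 activation motif.
Trem2 A_51_P269549: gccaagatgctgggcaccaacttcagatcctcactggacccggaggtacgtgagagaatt
Clec5a A_51_P398376: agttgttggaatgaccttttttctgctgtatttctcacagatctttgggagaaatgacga
Tyrobp A_51_P261517: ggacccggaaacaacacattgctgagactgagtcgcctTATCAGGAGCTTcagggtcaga

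The other probes lay within 60 genomic bases each. Trem2 A_51_P269546 was placed at chr17:46496865-46496924, Trem1 A_51_P398491 at chr17:46387503-46387562 and Trem1 A_52_P415116 at chr17:46389066-46389125. Clec5a A_52_P142888 lay at chr6:40505142-40505201, Clec5a A_52_P218058 at chr6:40507043-40507102 and Syk A_51_P444934 at chr13:51686664-51686723. Exon and UTR annotation of that build was not used here. No member probe was saturated on any of the 28 arrays.

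In exposed lungs Trem2 and Clec5a were higher and the adaptor and the kinase were not. Trem2 A_51_P269546 was 0.84 ± 0.07 (SE) higher on the log2 scale in exposed than in control lungs, 1.79-fold. Clec5a A_52_P218058 was 0.72 ± 0.07 higher, 1.65-fold, whereas Tyrobp differed by -0.05 ± 0.07 and Syk by 0.01 ± 0.08. Tissue RNA cannot tell more cells of a type from more RNA per cell, and this holds for every value here.

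Trem2 A_51_P269546 stood at -1.04, -1.06, -1.18, -0.71, -0.90, -0.75 and -0.78 in exposed mice 1, 7, 12, 13, 19, 20 and 23. The 6 control lungs ran from -1.88 through a median of -1.74 to -1.68. All 7 exposed lungs were above all 6 control lungs. The 3 lowest exposed lungs, of mice 1, 7 and 12, shared the first and the second of the 4 lung slides, and the 4 higher were on the other slides. The part of the slide in that order was not tested.

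The other Trem2 probe, A_51_P269549, gave a smaller difference of 0.51 ± 0.10, 1.42-fold. Its exposed lungs ran from -1.34 through -0.93 to -0.76 and its control lungs from -1.70 through -1.46 to -1.27. The groups overlapped only through exposed mouse 1 at -1.34, which lay below control mouse 27 at -1.27. Both Trem2 probes were well above background in Cy5 on all 28 arrays.

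Clec5a A_52_P218058 ran from -0.13 through a median of -0.04 to 0.15 in exposed lungs and from -0.95 through -0.76 to -0.45 in control lungs. No exposed lung reached down to a control lung. Of the 9 member probes, this one and Trem2 A_51_P269546 had lung groups that did not overlap. Across the array 0.525% of probes had such groups, and 0.202% passed an adjusted p of 0.05 in limma with Benjamini-Hochberg adjustment. Nothing is read from the comparison with those shares, since this contrast chose the genes.

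The remaining Clec5a probes were near background. A_51_P398376, the probe of the single variant, was well above background in Cy5 on 4 of 7 exposed and on 0 of 6 control lungs. Its exposed lungs ran from -0.51 to -0.16 and its control lungs from -0.59 to -0.37, so the groups overlapped. Its mean Cy5 signal was 1.11-fold higher in exposed lungs, taking each control array at no less than its dimmest probe that was well above background. Exposed lungs not well above background entered at their measured signal, so this value is not a lower bound. This value and the bounds given below are for the Cy5 channel after quantile normalization of average intensity between arrays. They are open to dye bias without a dye swap and set no limit to the ratio, whose fold can be smaller. A_52_P142888 was well above background on 1 exposed and 2 control lungs and differed by 0.01 ± 0.05.

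Trem1 gave dim signals in every lung. A_52_P415116 gave Cy5 signals of 73.5 to 107 units and ran from 0.19 to 0.48 in exposed and from 0.24 to 0.48 in control lungs, a difference of -0.07 ± 0.06. A_51_P398491 lost 2 exposed and 2 control lungs to flagged spots and differed by -0.01 ± 0.08. The exposed and control ranges of both probes overlapped. For A_52_P415116 Cy3 was not well above background on any lung, and for A_51_P398491 it was on 1 exposed and 0 control lungs. These ratios were taken near background, so a difference could be missed.

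Tyrobp, the adaptor that all 3 receptors share, ran from 1.44 through 1.56 to 1.67 in exposed lungs and from 1.38 through 1.56 to 1.83 in control lungs. Syk ran from 1.09 through 1.35 to 1.56 in exposed lungs and from 1.13 through 1.29 to 1.55 in control lungs. For Tyrobp the exposed range lay inside the control range, and for Syk the ranges nearly coincided.

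**Figure D1:**
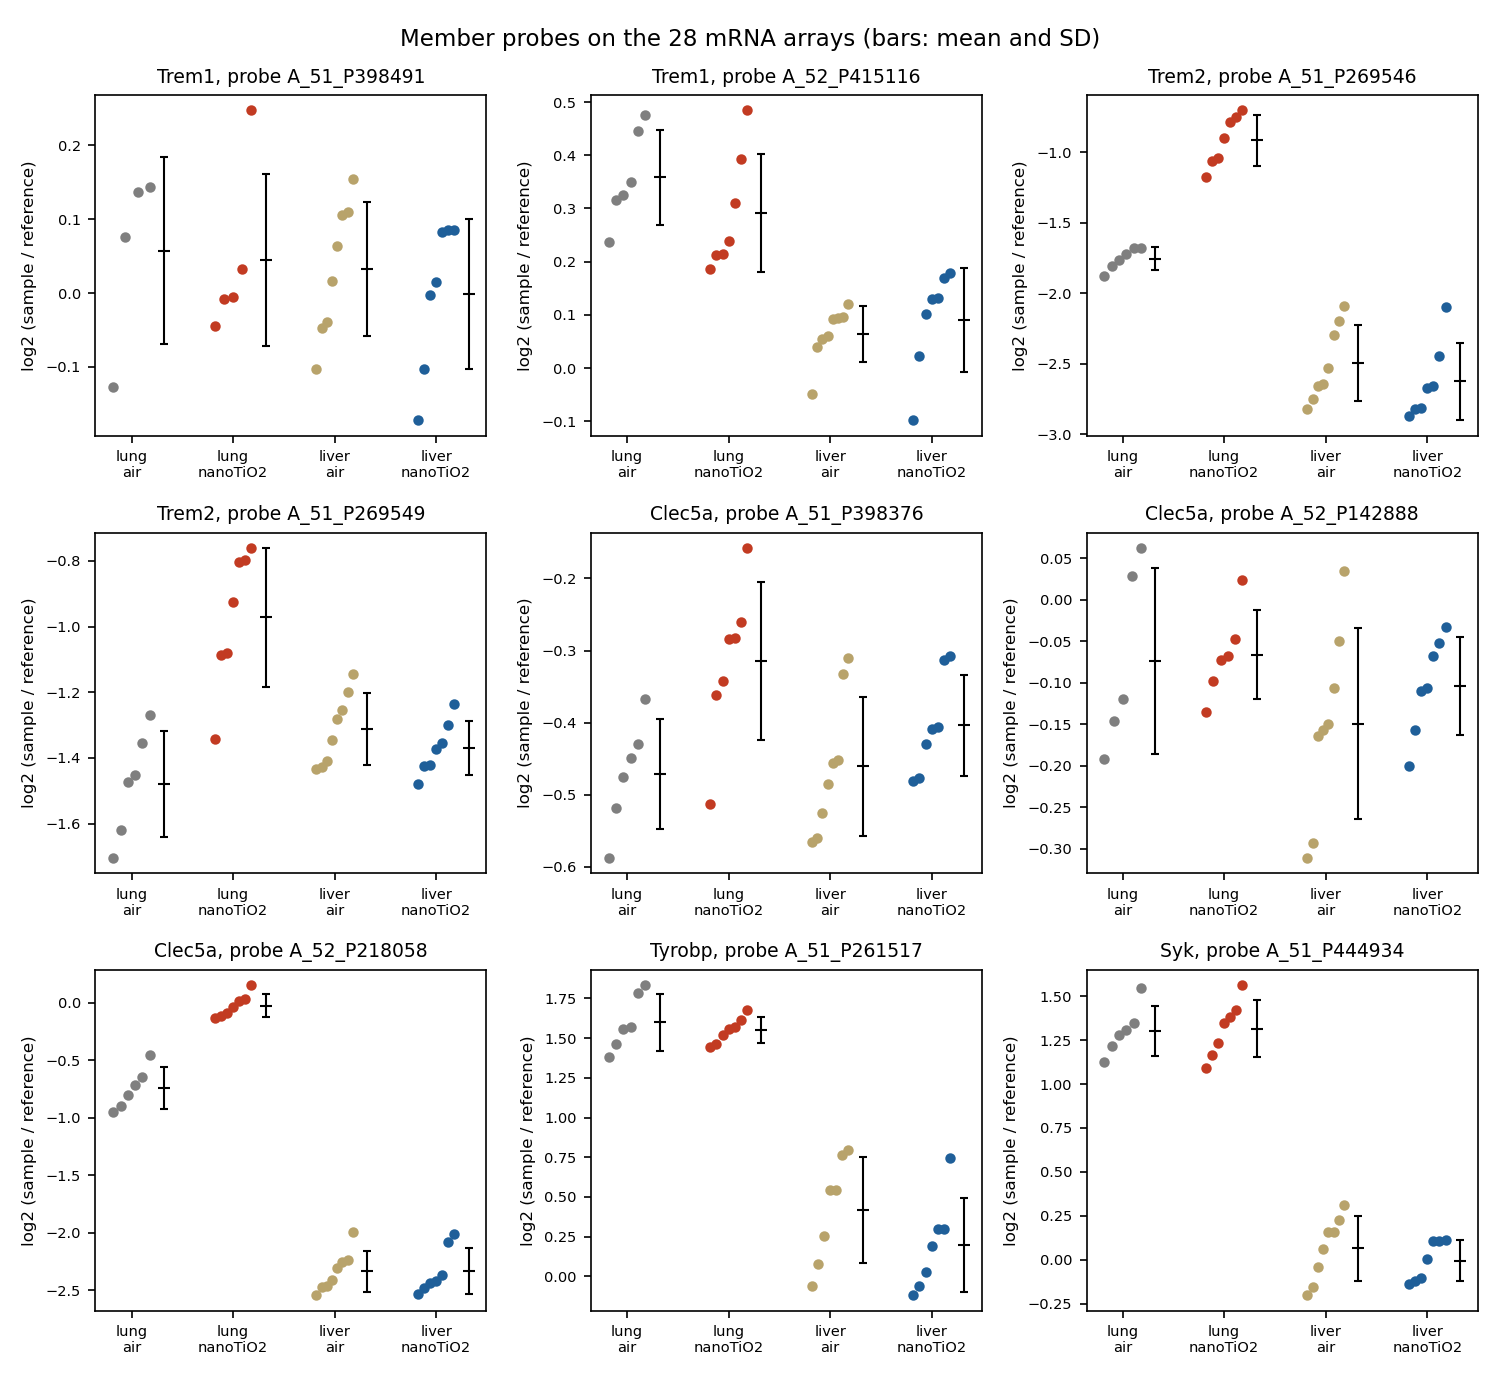
Each panel plots a member probe, with the log2 ratio of sample over reference on the vertical axis, 1 point per array in the 4 groups, and the mean with its SD at the right of each group. Exposed lungs stand apart from control lungs for Trem2 A_51_P269546 and Clec5a A_52_P218058, while Tyrobp and Syk separate lung from liver.

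For the probes whose lung groups did not overlap, the sign within a slide was fixed in advance, so only the sizes are described. On the 3 of 4 lung slides that held both groups, Trem2 A_51_P269546 was higher in exposed lungs by 0.69, 0.60 and 0.94. Trem2 A_51_P269549 was higher by 0.45, 0.22 and 0.62, and Clec5a A_52_P218058 by 0.71, 0.57 and 0.83. Tyrobp differed by -0.16, 0.14 and -0.06 on the same slides and Syk by 0.12, -0.16 and 0.08, so neither kept a direction. Exposed samples always sat at the first positions of a slide and controls at the last, so position and exposure cannot be told apart.

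Other genes of the pathway were read from lists that leave out the 5 members, with 86 genes measured and 5 without a usable probe. In lung 3 genes passed the adjusted p of 0.05, all higher, and none was lower. That is 3.49% of the list genes, beside 0.202% of all probes, and the median difference was 0.03 over the list genes and 0.00 over all probes. The lists were chosen with earlier results of these data known, and each list gene was read by its brightest probe. No conclusion is drawn from these shares. The 3 were Gpnmb, Mmp12 and Spp1, all from the list of lipid-associated macrophage genes. None of the other 8 lists had a call in this fit.

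Gpnmb, a membrane glycoprotein of macrophages with a lysosomal role, was 0.48 ± 0.06 higher in exposed lungs, 1.40-fold (limma, adjusted p = 0.00151), with control mouse 29 dropped for a flagged spot. Its exposed lungs ran from -2.80 to -2.43 and its control lungs from -3.19 to -3.02 without overlap. Mmp12, the macrophage elastase, was well above background on 7 of 7 exposed and 0 of 6 control lungs. Its ratio was 0.67 ± 0.09 higher, 1.59-fold (limma, adjusted p = 0.00175), and its Cy5 signal at least 1.63-fold higher. Spp1, the secreted protein osteopontin, was 0.66 ± 0.12 higher (limma, adjusted p = 0.0482). That last call was lost in 11 of the 13 fits that left out an array, with adjusted p = 0.0679 to 0.124 in them, and all 3 were lost with a background model on all spots or with median centring.

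The other 13 genes of the lipid-associated list did not pass. Cd68, a lysosomal protein of macrophages, differed by 0.36 ± 0.08 (limma, adjusted p = 0.0997). The list's median difference was 0.15 over 16 genes, of which 12 were above 0.

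No receptor related to the members was called in this fit, and those of the TREM family and the DAP12-paired list mostly lay below 0. Trem3 differed by -0.15 ± 0.11 and Treml4 by -0.34 ± 0.17, and all 3 measured TREM family receptors were below 0, with a median of -0.31. Of the 9 measured receptors that also pair with DAP12, 2 were above 0, and they reached from -0.33 ± 0.16 for Pilrb1 to 0.11 ± 0.17 for Klra8. Among 6 genes listed as ITAM adaptors and Fc receptors the differences reached from -0.04 ± 0.10 for Hcst to 0.15 ± 0.10 for Fcgr2b. Hcst encodes the sister adaptor DAP10, which bears no ITAM itself. Clec4n, or dectin-2, which signals through the Fc receptor gamma chain and Syk, had the largest value of the 6 lectin receptors at 0.54 ± 0.12 (limma, adjusted p = 0.0922), and Clec1b had the lowest at -0.17 ± 0.11. Clec4n was called without control mouse 34 (limma, adjusted p = 0.00754) and was -0.06 with the background model on all spots.

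Kinases and steps below Syk lay close to 0. The 9 Src and Syk family kinases reached from -0.22 ± 0.12 for Fgr to 0.18 ± 0.07 for Zap70. Of 19 genes downstream of Syk 14 were above 0, with a median of 0.03. Malt1, the paracaspase of the Card9-Bcl10 complex, had the largest value at 0.38 ± 0.08 (limma, adjusted p = 0.0590), and Nfatc1 the lowest at -0.22 ± 0.08. Malt1 was called in limma with slide as a random block (adjusted p = 0.0383), with the filter on dim probes (adjusted p = 0.0448) and without exposed mouse 7 (adjusted p = 0.0201). The inhibitors of ITAM signalling had a median of -0.02 over 10 genes, from -0.12 ± 0.12 for Pilra to 0.26 ± 0.06 for the adaptor Dok2 (limma, adjusted p = 0.0987). Ligands and sheddases had a median of 0.02 over 8 genes, from -0.05 ± 0.13 for Lgals3 to 0.26 ± 0.10 for Pglyrp1, a Trem1 ligand.

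**Figure D2:**
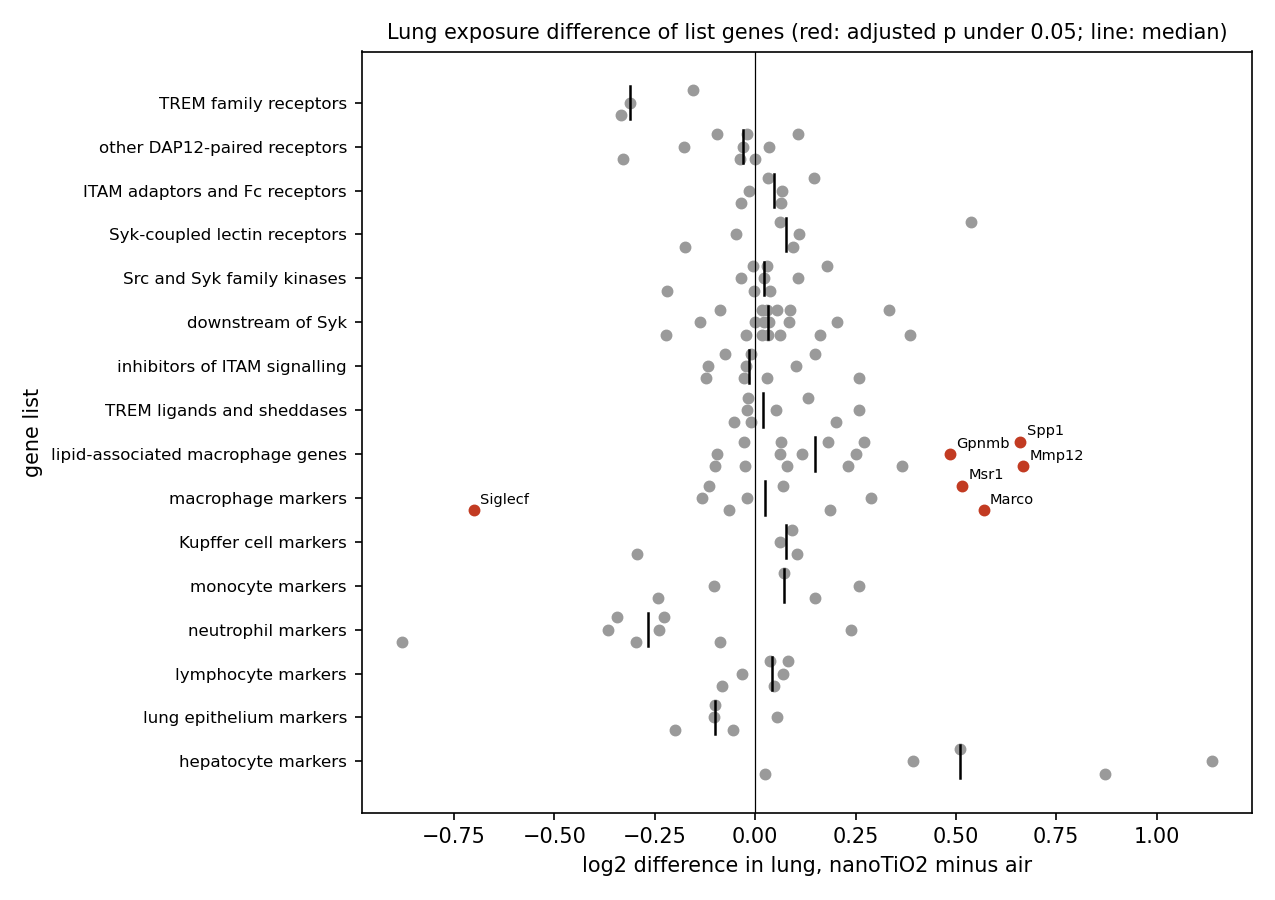
Each point is a gene of a list at its lung difference, exposed minus control, on the log2 scale; red marks an adjusted p under 0.05 in limma and the black line the list's median. Gpnmb, Mmp12 and Spp1 at the right are the pathway genes called, and Marco, Msr1 and Siglecf are the macrophage markers called.

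Macrophage markers changed in both directions in the same lungs. Marco and Msr1, both scavenger receptors, were higher by 0.57 ± 0.09 (limma, adjusted p = 0.00924) and 0.52 ± 0.09 (limma, adjusted p = 0.0200). Siglecf, a surface lectin of alveolar macrophages and eosinophils, differed by -0.70 ± 0.11, lower in exposed lungs (limma, adjusted p = 0.0105). All 3 calls were lost with the background model on all spots, where Marco differed by 0.16, and with median centring, and those of Marco, at 0.25, and Siglecf also with the scanner's processed signals. In limma the call of Msr1 was lost, besides, with the authors' values (adjusted p = 0.0553), with no background correction (adjusted p = 0.0507) and without control mouse 24 (adjusted p = 0.0628), control mouse 32 (adjusted p = 0.0555) or exposed mouse 23 (adjusted p = 0.0510). The mean log2 ratio of the 10 markers ran from 1.64 to 1.97 in exposed and from 1.83 to 2.06 in control lungs, so the list as a whole overlapped.

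Of the other cell type lists no gene was called in lung. The mean of 8 neutrophil markers ran from 0.80 to 1.68 in exposed and from 0.78 to 1.51 in control lungs. Their median difference was -0.27, with 1 of 8 above 0. The mean of 5 monocyte markers ran from 1.75 to 2.26 and from 1.67 to 2.19, with a median difference of 0.07. Hepatocyte markers, whose mean over 5 genes ran from 0.47 to 2.48 in exposed and from 0.24 to 1.02 in control lungs, had a median difference of 0.51. The lists of 6 lymphocyte, 5 lung epithelium and 4 Kupffer cell markers had median differences of 0.04, -0.10 and 0.08. The part of any of these cells in the Trem2 and Clec5a values was not tested.

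In liver no member differed between exposed and control mice at the adjusted p of 0.05, and no probe of the array did. In limma 0 of 41143 probes passed (0% called), and 1039 had an unadjusted p under 0.05. The 9 member probes differed by -0.22 to 0.06, and the groups of all 9 overlapped, beside 0.0828% of probes on the array whose liver groups did not. The smallest unadjusted p of the 9 in limma was 0.163, for Tyrobp. The rule named no liver value, but the liver results were known when the genes were chosen.

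Trem2 A_51_P269546 in liver ran from -2.87 through -2.67 to -2.10 in exposed mice and from -2.82 through -2.59 to -2.09 in control mice. The difference was -0.13 ± 0.13 with a 95% interval of -0.40 to 0.14 (exact permutation p = 0.374, 2-sided over 6435 splits). Exposed mouse 13 was the highest of its group at -2.10 and the next was mouse 20 at -2.45. Within the 4 liver slides the difference ran from -0.57 to 0.15. Trem2 A_51_P269549 differed by -0.06, interval -0.17 to 0.05 (exact permutation p = 0.266).

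Clec5a A_52_P218058 in liver ran from -2.53 to -2.01 in exposed and from -2.54 to -1.99 in control mice, with a difference of 0.00 and an interval of -0.19 to 0.19 (exact permutation p = 0.983). The difference between the lung and liver values was not tested, since the lung values chose the genes. Clec5a A_51_P398376 and A_52_P142888 were not well above background in any exposed liver, and in 1 and 0 control livers.

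Tyrobp had the widest spread of the members in liver. It ran from -0.12 through 0.19 to 0.75 in exposed mice and from -0.06 through 0.54 to 0.80 in 7 control mice, with control mouse 37 dropped for a flagged spot. The difference was -0.22 ± 0.15, interval -0.54 to 0.10 (exact permutation p = 0.209, over 3432 splits), and within slides it ran from -0.66 to 0.07. Syk differed by -0.07, interval -0.23 to 0.09 (exact permutation p = 0.395).

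Trem1 A_51_P398491 differed by -0.03, interval -0.14 to 0.08 (exact permutation p = 0.502). Trem1 A_52_P415116 was not well above background on any of the 15 livers. Of the 86 other pathway genes none was called in liver by limma, 7 had an unadjusted p under 0.05, and their median difference was -0.05. The largest difference above 0 was that of Siglech at 0.13 ± 0.04, not well above background in any liver. Apoe, a Trem2 ligand, differed by -0.30 ± 0.08 (limma, adjusted p = 1.00), and Spp1 ran from -5.08 to -3.62 in exposed and from -5.52 to -3.50 in control livers.

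**Figure D3:**
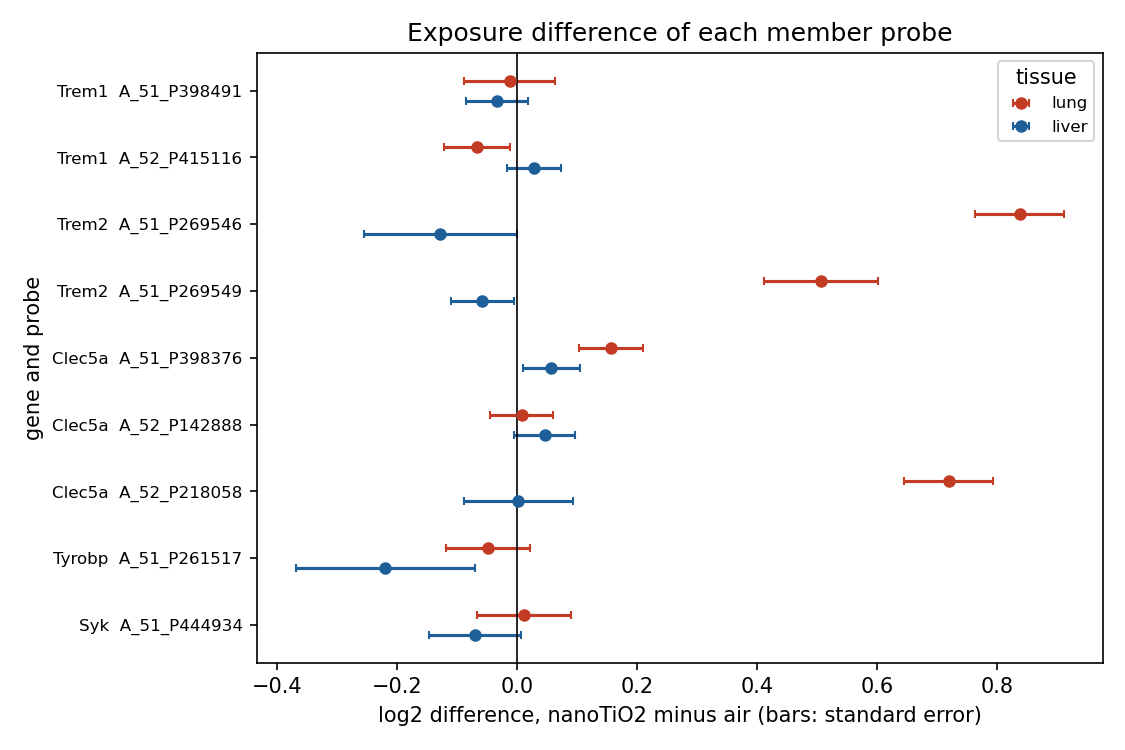
Points give the log2 difference, nanoTiO2 minus air, of each member probe in lung (red) and liver (blue), with the standard error of the limma fit as bars. Both Trem2 probes and Clec5a A_52_P218058 lie at 0.51 or more in lung, and all 9 liver differences lie between -0.22 and 0.06.

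Between tissues of air-exposed mice the adaptor and the kinase were higher in lung, and for the receptors the result varied by probe. Of the 9 member probes 5 passed the adjusted p of 0.05 in limma between 6 control lungs and 8 control livers, all higher in lung, beside 57.8% of all probes in either direction. The same 5 did not overlap between the tissues, beside 41.2% of all probes. These shares are high, so the member counts are described and not set apart from them. Tissue, slide, scan and software version cannot be told apart here.

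Clec5a A_52_P218058 had the largest difference, with control livers from -2.54 to -1.99 and control lungs from -0.95 to -0.45. It was 1.59 ± 0.09 higher in lung, 3.02-fold (limma, adjusted p = 6.58e-11). Syk was 1.24 ± 0.08 higher, 2.36-fold (limma, adjusted p = 8.36e-10), and Tyrobp 1.18 ± 0.13, 2.27-fold (limma, adjusted p = 1.10e-06). Trem1 A_52_P415116 was well above background in Cy5 on 6 of 6 lungs and 0 of 8 livers. Its ratio was 0.29 ± 0.04 higher in lung, 1.23-fold (limma, adjusted p = 1.95e-05), and its normalized Cy5 signal at least 1.25-fold higher. Before normalization its Cy5 signals were 73.5 to 107 units in control lungs and 86 to 96.5 in control livers. Cy3 was not well above background on any of these arrays, so the ratio was taken near background.

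The 2 Trem2 probes placed the tissues in opposite order. A_51_P269546 was 0.74 ± 0.10 higher in lung, 1.67-fold (limma, adjusted p = 7.99e-06), with lungs from -1.88 to -1.68 and livers from -2.82 to -2.09. A_51_P269549 differed by -0.17 ± 0.07, with lungs from -1.70 to -1.27 and livers from -1.43 to -1.15 (limma, adjusted p = 0.0505). With the mouse as a block over the 6 mouse numbers that label both tissues, the difference was -0.21 (limma, adjusted p = 0.0174). Over 9 other settings its adjusted p ran from 0.00467 to 0.387, with the lung below the liver in all of them. Which probe follows the Trem2 transcript better between tissues was not tested.

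For A_51_P269546 the 4 groups thus stood in the order exposed lung, control lung, control liver and exposed liver, and the livers did not differ beyond their spread. For A_51_P269549 exposed lung was again highest, but control lung, at a mean of -1.48 ± 0.16 (SD, n = 6), was lowest, below exposed liver at -1.37 ± 0.08 (SD, n = 7) with overlapping ranges. For Clec5a A_52_P218058, exposed lung at -0.02 ± 0.10 (SD, n = 7) and control lung at -0.74 ± 0.18 (SD, n = 6) stood above both liver groups at -2.33 ± 0.20 (SD, n = 7) and -2.34 ± 0.18 (SD, n = 8). Tyrobp and Syk split by tissue alone.

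Of the 86 pathway genes 61 were higher and 13 lower in control lung, with a median difference of 0.71. That is 86% of them, beside 57.8% of all probes, of which 12044 were higher and 11730 lower, with a median of -0.02. As in lung, the choice of the lists and of the brightest probe lets no conclusion be drawn from these shares. In the TREM family Treml1, a platelet receptor, was 1.87 ± 0.11 higher (limma, adjusted p = 1.79e-10), and Trem3, not well above background in any liver, was 0.59 ± 0.10 higher, with a Cy5 signal at least 1.56-fold higher. The DAP12-paired receptors had 4 higher and none lower, led by Sirpb1a at 2.56 ± 0.11 and the natural killer cell receptor chain Klrd1 at 2.41 ± 0.13. Klra8 and Siglech were not well above background in any control liver. Klra8 was 1.92 ± 0.15 higher, with a Cy5 signal at least 4.30-fold higher. Siglech, well above background on 2 of 6 lungs, was 0.18 ± 0.04 higher. Its mean Cy5 signal was 1.19-fold higher, which is not a lower bound, since the other lungs entered at their measured signal.

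The genes listed as ITAM adaptors and Fc receptors went both ways. Hcst was 1.34 ± 0.09 and Fcer1g, the Fc receptor gamma chain, 1.15 ± 0.13 higher in lung, Cd247 was 1.34 ± 0.07 higher, with a Cy5 signal at least 3.36-fold higher, and the inhibitory receptor Fcgr2b was lower, at -1.38 ± 0.07. Among lectin receptors Clec7a (dectin-1) was 2.32 ± 0.15 higher, Clec4d 1.09 ± 0.13 and Clec4n 0.88 ± 0.11, and Clec1b was lower, at -1.10 ± 0.13. Of the 9 kinases 7 were higher, among them Lck at 1.84 ± 0.10 and Src at 1.19 ± 0.05, and Zap70 was lower, at -2.35 ± 0.14.

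Downstream of Syk 15 genes were higher, among them Lat2 at 1.71 ± 0.09, 3.26-fold, Plcg2 at 2.83-fold and Vav3 at 1.36 ± 0.06, and 3 were lower, among them Tec at -1.47 ± 0.08. Of 10 inhibitors 9 were higher and none lower, with Cd300lf at 1.93 ± 0.07, Sirpa at 1.87 ± 0.12, the lipid phosphatase Inpp5d at 1.84 ± 0.08 and Dok1 at 1.15 ± 0.07. The galectin Lgals3 was 3.14 ± 0.14, Hmgb1 1.67 ± 0.09 and Il34 1.46 ± 0.07 higher, and Clu, an apolipoprotein that Trem2 binds, was lower, at -2.14 ± 0.06. In the lipid-associated list 11 were higher and 3 lower, with the tetraspanins Cd9 at 4.03 ± 0.12 and Cd63 at 1.88 ± 0.08 and the integrin Itgax at 2.59 ± 0.08 among the higher, and the cathepsin Ctsl at -1.65 ± 0.07 among the lower.

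The tissue labels held against their markers. All 5 lung epithelium markers were higher in lung, with a median of 4.65, and all 5 hepatocyte markers and all 4 Kupffer cell markers were higher in liver, with medians of -5.54 and -4.08. Macrophage markers had 4 higher and 3 lower in lung, and lymphocyte markers 4 higher and 1 lower. Monocyte and neutrophil markers had 5 and 6 higher and 0 lower. These counts stand beside 57.8% of all probes called between the tissues. Across the 28 arrays 55.1% to 70.5% of spots were well above background in Cy5, and the number of arrays limits the precision of every value.

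Within a group no relation of a member probe with Trem2 from lung to lung passed the adjusted p of 0.05. The other probe of Trem2 itself did not pass either. With 6 or 7 arrays, the lack of calls therefore does not show that members vary apart from Trem2. Correlations with Trem2 A_51_P269546 were taken inside each group alone, giving 13 relations with at least 6 arrays. The highest in exposed lungs was the other Trem2 probe, r = 0.83 and rho = 0.86 (n = 7, exact permutation p = 0.0272 and 0.0238, adjusted p = 0.353 and 0.310), and r = 0.88 without the 2 arrays farthest from the median. In control lungs the same pair gave r = 0.02 and rho = 0.03 (n = 6, exact permutation p = 0.982 and 1.00, adjusted p = 0.982 and 1.00), but r = 0.97 without those 2 arrays, so that value rests on them.

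Clec5a A_52_P218058 gave r = 0.43 and rho = 0.50 in exposed lungs (n = 7, exact permutation p = 0.337 and 0.267, adjusted p = 0.960 and 0.996), and r = 0.71 without the 2 farthest arrays. Tyrobp gave r = 0.17 and rho = 0.25 in exposed lungs (n = 7, exact permutation p = 0.701 and 0.595, adjusted p = 0.960 and 0.996) and r = 0.15 and rho = 0.14 in control lungs (n = 6, exact permutation p = 0.774 and 0.803, adjusted p = 0.960 and 0.996). Syk gave r = 0.31 and rho = 0.43 in exposed lungs (n = 7, exact permutation p = 0.491 and 0.354, adjusted p = 0.960 and 0.996). Without the 2 farthest arrays r was 0.22 and -0.34 for Tyrobp and -0.08 for Syk. With median centring in place of loess, 9 of the 13 relations passed by exact permutation, so the absence of calls depends on the normalization. Of these, the relation of the dim Clec5a A_52_P142888 in exposed lungs was negative (r = -0.77).

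In liver, a comparison added after the values were seen, the Trem2 probes followed each other closely. Among 16 relations, the second probe gave r = 0.96 and rho = 1.00 in exposed livers (n = 7, exact permutation p = 0.000198 and 0.000397, adjusted p = 0.00317 and 0.00635) and r = 0.94 and rho = 0.95 in control livers (n = 8, exact permutation p = 0.000769 and 0.00114, adjusted p = 0.00615 and 0.00913). Without the 2 farthest arrays r was 0.96 and 0.91. With the authors' values r was 0.87 and 0.86 with an adjusted p of 0.0845 by exact permutation in both groups.

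Tyrobp followed Trem2 less tightly in liver. It gave r = 0.78 and rho = 0.64 in exposed livers (n = 7, exact permutation p = 0.0462 and 0.139, adjusted p = 0.247 and 0.556) and r = 0.66 and rho = 0.75 in control livers (n = 7, exact permutation p = 0.108 and 0.0663, adjusted p = 0.344 and 0.353). Without the 2 farthest arrays r was 0.82 and 0.87. Exposed mouse 13 was the highest exposed liver for both genes, and its mean over 10 macrophage markers was 1.01, in a group that ran from 0.61 to 1.48.

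**Figure D4:**
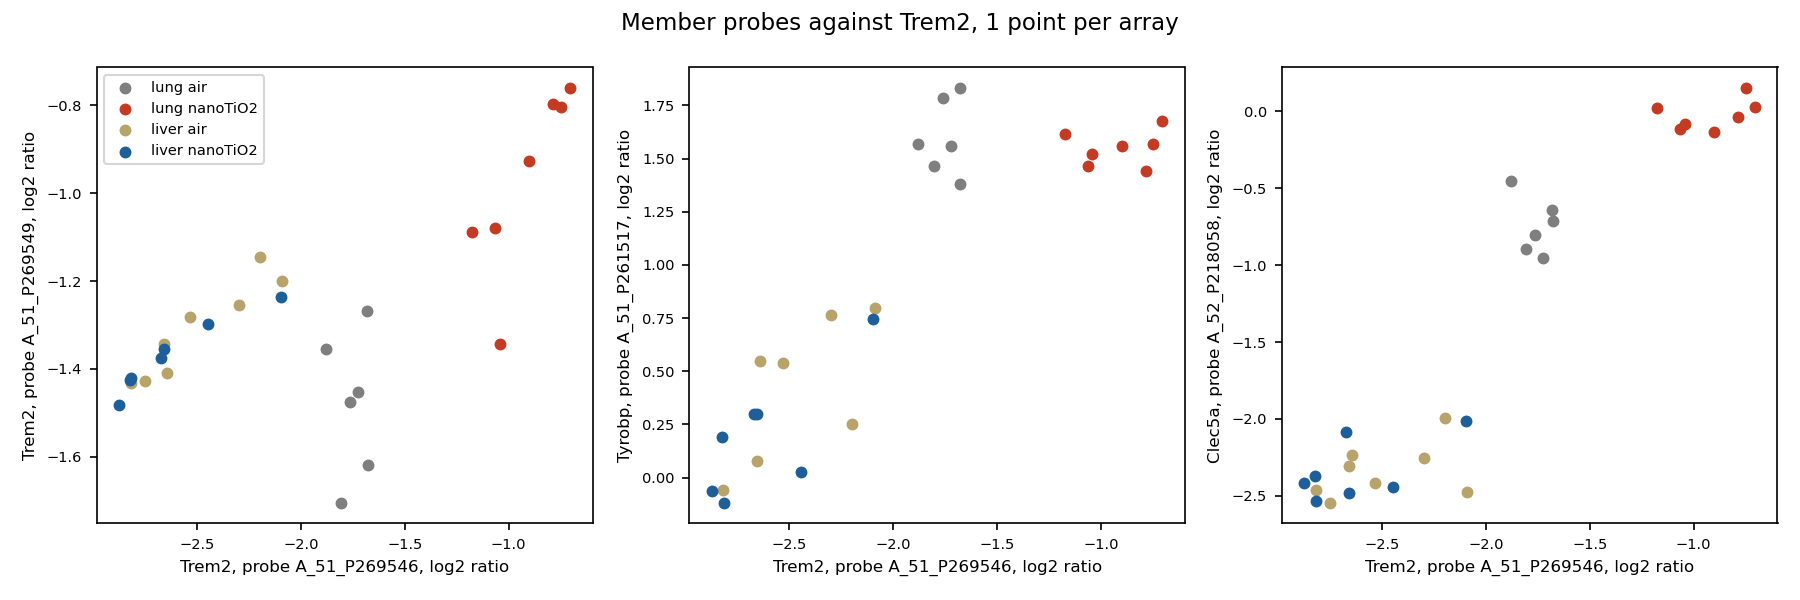
Trem2 A_51_P269546 on the horizontal axis is set against its second probe, Tyrobp and Clec5a A_52_P218058 as log2 ratios, with 1 point per array coloured by group. The liver points of the Trem2 probes lie along a line (r = 0.96 and 0.94), control lungs do not (r = 0.02), and exposed lungs differ from control lungs along Trem2 and Clec5a but not along Tyrobp.

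The genes most like Trem2 over the 13 lungs, with each group's mean removed, had r of 0.80 to 0.91 among 13315 gene names well above background on every lung array. They were the transcript ENSMUST00000076898 (0.91), Hmgb3 (0.86), Tsg101 (0.84), NAP071006-1 (0.84), Slc4a8 (0.83), Tnfrsf11a (0.83), 3110003A17Rik (0.81), A430085C19 (0.80), BC057079 (0.80) and C920005C14Rik (0.80). Tnfrsf11a, the receptor of RANK ligand, had r = 0.97 within exposed and 0.04 within control lungs. The second Trem2 probe had 0.63, Syk 0.20, Tyrobp 0.12 and Clec5a A_52_P218058 0.09 on this measure. With the authors' values, 4 of the 10 genes stayed among the top 10, and with the group means kept 1 did, so the order is a description of these settings. Picked as the largest of 13315 values over 13 arrays, r of this size can arise by chance, which was not tested.

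Both Trem2 probes and Clec5a A_52_P218058 were higher in exposed lungs, while the Trem1 ratios lay near background and give no firm contrast. The 250 bases before the start of Trem2, Clec5a and Trem1 are shown. They come from RefSeq (GRCm38.p6), which matched 4 of the 5 members, and are written in the direction of the gene. Capitals mark matches on either strand to GAGGAA, the core of sites for the myeloid factor PU.1, and to TGANTCA. With N as any base, TGANTCA is a looser pattern than the AP-1 core, which has C or G there. The motifs do not overlap in these windows.
Trem2, chr17:48346151-48346400, plus strand: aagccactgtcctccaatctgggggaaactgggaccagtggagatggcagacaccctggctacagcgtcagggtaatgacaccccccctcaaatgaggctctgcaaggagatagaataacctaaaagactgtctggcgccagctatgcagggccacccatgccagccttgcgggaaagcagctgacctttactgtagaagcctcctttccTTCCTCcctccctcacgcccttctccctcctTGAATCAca
Clec5a, chr6:40585806-40586055, minus strand: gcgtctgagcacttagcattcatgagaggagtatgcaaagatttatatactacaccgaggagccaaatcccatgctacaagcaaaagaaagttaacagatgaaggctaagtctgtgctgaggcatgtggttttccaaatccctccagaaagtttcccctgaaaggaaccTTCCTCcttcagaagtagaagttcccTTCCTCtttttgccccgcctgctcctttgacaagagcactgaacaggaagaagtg
Trem1, chr17:48232489-48232738, plus strand: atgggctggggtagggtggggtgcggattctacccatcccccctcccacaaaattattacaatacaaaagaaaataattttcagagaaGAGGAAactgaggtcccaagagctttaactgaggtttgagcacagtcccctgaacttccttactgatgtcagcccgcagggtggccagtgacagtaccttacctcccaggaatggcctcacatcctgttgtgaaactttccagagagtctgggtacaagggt

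Trem2 held 1 GAGGAA match and 1 TGANTCA match, and Clec5a held 2 GAGGAA matches, all on the reverse strand for GAGGAA. The TGANTCA match of Trem2 reads TGAATCA, so it is not the strict AP-1 core. Trem1 held 1, and the 2 listed starts of Syk held 0 and 1. Of 32851 RefSeq promoter windows of this length 23.3% held GAGGAA and 6.75% held TGANTCA. A match is a description of the letters and not a site.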

How the data were processed

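Processed GEO files of 28 two-colour Agilent arrays were used, 13 of lung and 15 of liver. Per the file headers, the authors extracted spot intensity values with Agilent Feature Extraction 9.5.3.1 (lung) and 10.1.1.1 (liver). They deposited, besides, a log2 table normalized by LOWESS, used as an alternative. Spots with any outlier flag were left out, median signals were background-corrected (limma 3.58.1 in R 4.3.3, normexp, offset 50), loess-normalized within arrays (span 0.3, 4 iterations) with control spots at weight 0, and spots of a probe were averaged. Flagged spots were removed before the background model because bright flagged spots moved its level on some arrays. Contrasts were tested with limma (lmFit, eBayes) and Benjamini-Hochberg adjustment over all probes, lung and liver apart, with an adjusted p of 0.05 as the threshold, and tested on simulated data.

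The members and the gene lists were chosen with earlier results of these data known. By rule, every member probe and the 10 genes most like Trem2 were to be named. From each list the rule took up to 4 called genes by smallest p. Where fewer than 2 were called, it added the largest positive and negative difference. For liver and for the cell type lists the text does not name all of these, and Cd68 is named outside the rule. A gene with several probes in a list took the probe of highest mean Cy5 signal. Exact permutation tests enumerated all splits or pairings. Control lung and liver share 6 mouse numbers in the labels, taken as the same animals, and deviations from the group means of a mouse correlated by -0.04 to 0.13 between tissues. Some numbers label exposed mice on the mRNA arrays and control mice on the microRNA arrays. The pairing thus rests on the labels of the mRNA arrays alone. The microRNA arrays were not used here, and 1 gene that the rule names is not reported here. Alternatives covered background, normalization, the authors' table, flagged spots, a filter on dim probes, slides, pairing and each array left out.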

Additional observations from a re-analysis of the deposited data

Results flagged for a closer look

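Of 36 probe and group combinations of the members, 1 had an array that stood apart, and chance alone gives about 1 in 20. Trem1 A_51_P398491 was 0.25 in the lung of exposed mouse 7, against 0.03 in the next highest of 5 exposed lungs with a value. The probe is near background, with a Cy5 signal of 116.5 units in that lung and 73.5 units in the lowest of its group.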

How the results depend on the processing

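Both Trem2 probes and Clec5a A_52_P218058 kept their lung sign under all alternatives, although groups that do not overlap fix the sign within a slide. The dim Clec5a A_52_P142888 did not keep its sign (-0.12 on the second slide). With each array left out they ran from 0.80 to 0.88 for Trem2 A_51_P269546, from 0.46 to 0.57 for Trem2 A_51_P269549 and from 0.68 to 0.78 for Clec5a A_52_P218058. Values farther than 1 SD from the reported ones were 0.72 for Trem2 A_51_P269549 with the scanner's processed signals and, within single slides, 0.69 and 0.60 for Trem2 A_51_P269546, 0.22 for Trem2 A_51_P269549 and 0.57 for Clec5a A_52_P218058. The 83 lung probes called became 12 with a background model on all spots, 4 with median centring, 133 with slide as a random block and 64 to 81 with an array left out. The 3 list genes called became 0 with the background model on all spots, 0 with median centring, 2 without background correction or with processed signals, 4 with the filter on dim probes or slide as a random block, the added gene being Malt1, and 2 to 3 with an array left out. In liver 0 probes were called under every alternative. Between control tissues 22845 to 23825 probes and 5 to 6 member probes were called with an array left out. The replicate block over mice gave 22427 probes and 6 member probes, the added one being Trem2 A_51_P269549 at -0.21, and changed no other member call. Median centring gave 9 of the lung covariations past the threshold in place of 0. Of the 10 genes most like Trem2, 2 stayed with the background model on all spots, 3 with median centring, 4 with the authors' values and 1 with group means kept. The liver covariations called, 2 as reported, were 0 with the authors' values and 4 with the background model on all spots. The cause of these changes was not tested. Depth of signal limits the dim probes: with processed signals the lung difference was 1.35 for Clec5a A_51_P398376, -0.77 for Trem1 A_52_P415116 and -0.51 for Trem1 A_51_P398491, and the last was called between tissues (0.81, limma adjusted p = 0.0243). Syk in lung was -0.26 with the background model on all spots.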
